A study of Mus musculus with 21 samples.

Results

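The genes described here were the Fc gamma receptors and the myeloid C-type lectins of the mouse, 9 genes chosen by symbol out of 46370 genes with any read in the series. They comprised the activating IgG receptors Fcgr1, Fcgr3 and Fcgr4, the inhibitory IgG receptor Fcgr2b, the shared signalling chain Fcer1g, and the lectins Clec4d (MCL), Clec4e (Mincle), Clec4n (Dectin-2) and Clec7a (Dectin-1). They were measured by RNA-Seq in 21 libraries of wild-type male C57BL/6 mice aged 8 to 12 weeks. The libraries were made from neutrophils of the blood (PMNs) and tubular epithelial cells of the kidney (TECs), isolated 24 hours after sham surgery or renal ischemia-reperfusion injury (IRI), made by a clamp on the renal pedicles of 32 minutes. Surgery followed remote ischemic preconditioning (RIPC), given as 3 inflations of a cuff on the hind limb of 5 minutes each, or a control procedure. The 8 groups held 2 libraries of PMNs after sham surgery without RIPC (sham control) and 3 with it (sham RIPC), 2 of PMNs after IRI without RIPC (IRI control) and 3 with it (IRI RIPC), 3 TEC libraries in each sham group, 2 TEC libraries of the IRI control group and 3 of the IRI RIPC group. All mice were of the same genotype, and mice of every group underwent surgery. The labels number the libraries within a group and do not say which mouse each came from, so p-values measure the spread between libraries.

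Fc gamma receptors bind the constant part of IgG in immune complexes. The activating receptors signal through the gamma chain encoded by Fcer1g, whose ITAM motif is phosphorylated by Src-family kinases such as Lyn and then recruits Syk, and Syk passes the signal through Card9, Bcl10 and Malt1 to NF-kB. Fcgr2b carries an inhibitory motif in its own tail and recruits the phosphatase encoded by Inpp5d, so that neutrophils set their response to immune complexes by the balance of both kinds of receptor. Clec4d, Clec4e and Clec4n also signal through the gamma chain, whereas Clec7a has a motif of its own. Clec4e recognizes mycobacterial glycolipid and material released from dying cells, Clec4d binds the same glycolipid and pairs with Clec4e, Clec4n binds fungal mannans, and Clec7a binds fungal beta-glucans.

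Positions are those of GRCm38. Fcgr2b (chr1:170958617-170976547, minus strand), Fcgr4 (chr1:171018920-171029761, plus strand), Fcgr3 (chr1:171051174-171064935, minus strand) and Fcer1g (chr1:171229572-171234365, minus strand) lie in the same region of chromosome 1. Clec4n (chr6:123229843-123247021, plus strand), Clec4d (chr6:123262111-123275265, plus strand) and Clec4e (chr6:123281789-123289870, minus strand) lie close together on chromosome 6, with Clec7a (chr6:129461591-129472779, minus strand) farther along, and Fcgr1 lies on chromosome 3 (chr3:96282909-96293969, minus strand). The promoter windows of the lectin pair that stood highest after IRI, Clec4d and Clec4e, and of an activating and the inhibitory IgG receptor, Fcgr3 and Fcgr2b, are printed below from RefSeq on GRCm38.p6, from 250 bases before to 50 bases after the start. Capitals mark GAGGAA or its reverse complement TTCCTC, the core letters recognized by PU.1, the transcription factor that opens myeloid genes.
Clec4d, chr6:123261857-123262156, strand plus: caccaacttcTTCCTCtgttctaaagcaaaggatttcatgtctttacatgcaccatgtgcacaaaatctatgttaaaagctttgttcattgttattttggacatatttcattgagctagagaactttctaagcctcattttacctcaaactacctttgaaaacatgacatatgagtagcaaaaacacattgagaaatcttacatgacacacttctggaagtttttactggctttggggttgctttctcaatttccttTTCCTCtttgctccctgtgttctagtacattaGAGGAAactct
Clec4e, chr6:123289822-123290121, strand minus: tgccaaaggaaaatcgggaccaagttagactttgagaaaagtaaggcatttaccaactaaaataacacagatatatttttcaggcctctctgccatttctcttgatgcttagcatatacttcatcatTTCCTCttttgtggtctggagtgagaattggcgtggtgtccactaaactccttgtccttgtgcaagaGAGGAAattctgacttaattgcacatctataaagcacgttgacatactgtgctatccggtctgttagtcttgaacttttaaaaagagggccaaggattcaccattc
Fcgr3, chr1:171059354-171059653, strand minus: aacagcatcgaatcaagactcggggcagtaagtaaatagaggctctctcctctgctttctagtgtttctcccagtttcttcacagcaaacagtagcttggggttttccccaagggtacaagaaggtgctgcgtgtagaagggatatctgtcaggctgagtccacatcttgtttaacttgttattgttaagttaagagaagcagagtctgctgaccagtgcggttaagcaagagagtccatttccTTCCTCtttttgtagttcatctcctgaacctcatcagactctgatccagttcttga
Fcgr2b, chr1:170976022-170976321, strand minus: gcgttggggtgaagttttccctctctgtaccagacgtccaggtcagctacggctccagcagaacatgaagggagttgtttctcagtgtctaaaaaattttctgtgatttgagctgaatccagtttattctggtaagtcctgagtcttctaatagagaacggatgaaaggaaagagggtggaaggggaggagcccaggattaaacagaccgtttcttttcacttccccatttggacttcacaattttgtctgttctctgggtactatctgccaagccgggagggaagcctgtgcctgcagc

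GAGGAA was present on either strand in 6 of the 8 promoters with an entry (Clec4d, Clec4e, Clec7a, Fcgr1, Fcgr3 and Fcgr4) and absent from those of Fcgr2b and Fcer1g, and 28.3% of all 32851 promoters of the same length held it. Clec4d held it at 3 places and Clec4e at 2. The letters TTGCNNAA of C/EBP were found in Clec4e and Fcgr3, against 10.8% of all promoters, and the kB motif of NF-kB was found in Fcgr3, against 1.63%. The motif of the IRF factors was found in Clec4d, where it overlapped a PU.1 match, and in Fcgr4, against 3.44% of all promoters. TTCNNNGAA of STAT was found in Fcgr1 (8.3% of all promoters) and TGANTCA of AP-1 in none (7.81% of all promoters). All motifs were searched on both strands, and these are matches of letters in 1 window per gene (the first RefSeq entry for Fcgr3 and Clec7a, which had 2 entries each; Clec4n had none).

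Part of the Fcgr2b and Fcgr3 transcripts cannot be told apart by short reads. The longest stretch that both coding sequences share without a difference was 129 bases long, from exon 3 to exon 4 of each gene, at chr1:170966674-170968081 in Fcgr2b and chr1:171054167-171057792 in Fcgr3, introns included.
Fcgr2b and Fcgr3, shared stretch: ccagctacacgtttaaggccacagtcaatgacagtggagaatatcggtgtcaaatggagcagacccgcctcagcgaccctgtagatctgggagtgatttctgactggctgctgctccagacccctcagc
Of the 1733 distinct 50-base words of the Fcgr3 transcripts, which is the read length here, 166 (9.58%) also occurred in Fcgr2b. Of the 5685 words of Fcgr2b, 249 (4.38%) were shared with Fcgr3 or other genes on the same strand and 229 (4.03%) with other genes on the opposite strand. In Clec4n 11 of 1603 words (0.686%) were shared with another gene, and Fcgr1, Fcgr4, Fcer1g, Clec4d, Clec4e and Clec7a shared none. An antisense gene, Gm38204, overlaps Fcgr2b, and the sources used here do not say whether reads were assigned by strand.

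PMN libraries held 20881334 to 30507235 reads and TEC libraries 21479605 to 51624602 reads. Among PMNs, the IRI libraries (25661853 to 30507235 reads) were all deeper than the sham libraries (20881334 to 23517048 reads). The labelled cell types were checked on marker genes, as the sum over each list of their CPM, which are counts scaled to the size of the library. The 12 neutrophil markers summed to between 5790 and 27700 CPM in sham PMNs and between 12500 and 32800 CPM after IRI, and to at most 110 CPM in TECs, where Camp had no read in any library. The 9 proximal tubule markers summed to between 2590 and 18100 CPM in TECs, but also to between 1200 and 10600 CPM in sham PMNs (median 4920) and between 493 and 845 CPM in IRI PMNs. The 12 monocyte and macrophage markers were also present in PMNs, at 2960 to 9500 CPM after sham surgery and 1280 to 2410 CPM after IRI. The 4 leukocyte markers summed to 1240 to 2300 CPM in sham and 3330 to 4090 CPM in IRI PMNs. The leukocyte, macrophage and proximal tubule sums thus did not overlap between sham and IRI PMNs. The neutrophil sums overlapped through replicate 1 of the sham control group alone, at 27700 CPM. The remaining sham PMN libraries had 5790 to 10500 CPM, below the lowest IRI library at 12500 CPM. Replicate 2 of the PMN sham control group stood apart, with 10600 CPM of proximal tubule and 5040 CPM of distal tubule and collecting duct markers. In such bulk libraries fewer cells of a type and less RNA per cell cannot be told apart.

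In PMNs of sham mice, Fcer1g and Fcgr3 had the highest levels per transcript length. In TPM, which also scale by transcript length (mean ± SD over 5 libraries), the order was Fcer1g 809 ± 317, Fcgr3 357 ± 183, Fcgr2b 138 ± 105, Clec4e 120 ± 76.8, Fcgr4 105 ± 72.3, Clec4d 105 ± 81.2, Clec7a 59.3 ± 44.5, Clec4n 27.3 ± 30.6 and Fcgr1 17.9 ± 29.7. The means of Fcer1g and Fcgr3 differed by 1.43 times the larger of their SDs, those of Fcgr3 and Fcgr2b by 1.2 times, and each later pair of neighbours by less than 1 SD. After IRI the lectins Clec4e and Clec4d stood next, at 964 ± 352 and 793 ± 103 TPM, below Fcer1g at 1180 ± 167 TPM and above Fcgr3 at 580 ± 91.1 TPM (n = 5). Clec4d lay above Fcgr3 by 2.07 SD and Fcgr3 above Fcgr2b (114 ± 37.9 TPM) by 5.11 SD. Fcgr4 (107 ± 23.3 TPM), Clec7a (92.5 ± 23 TPM), Clec4n (84.3 ± 54.2 TPM) and Fcgr1 (33.8 ± 17.5 TPM) followed, and no pair of neighbours below Fcgr2b, nor Fcer1g and Clec4e or Clec4e and Clec4d, differed by 1 SD.

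**Figure D1:**
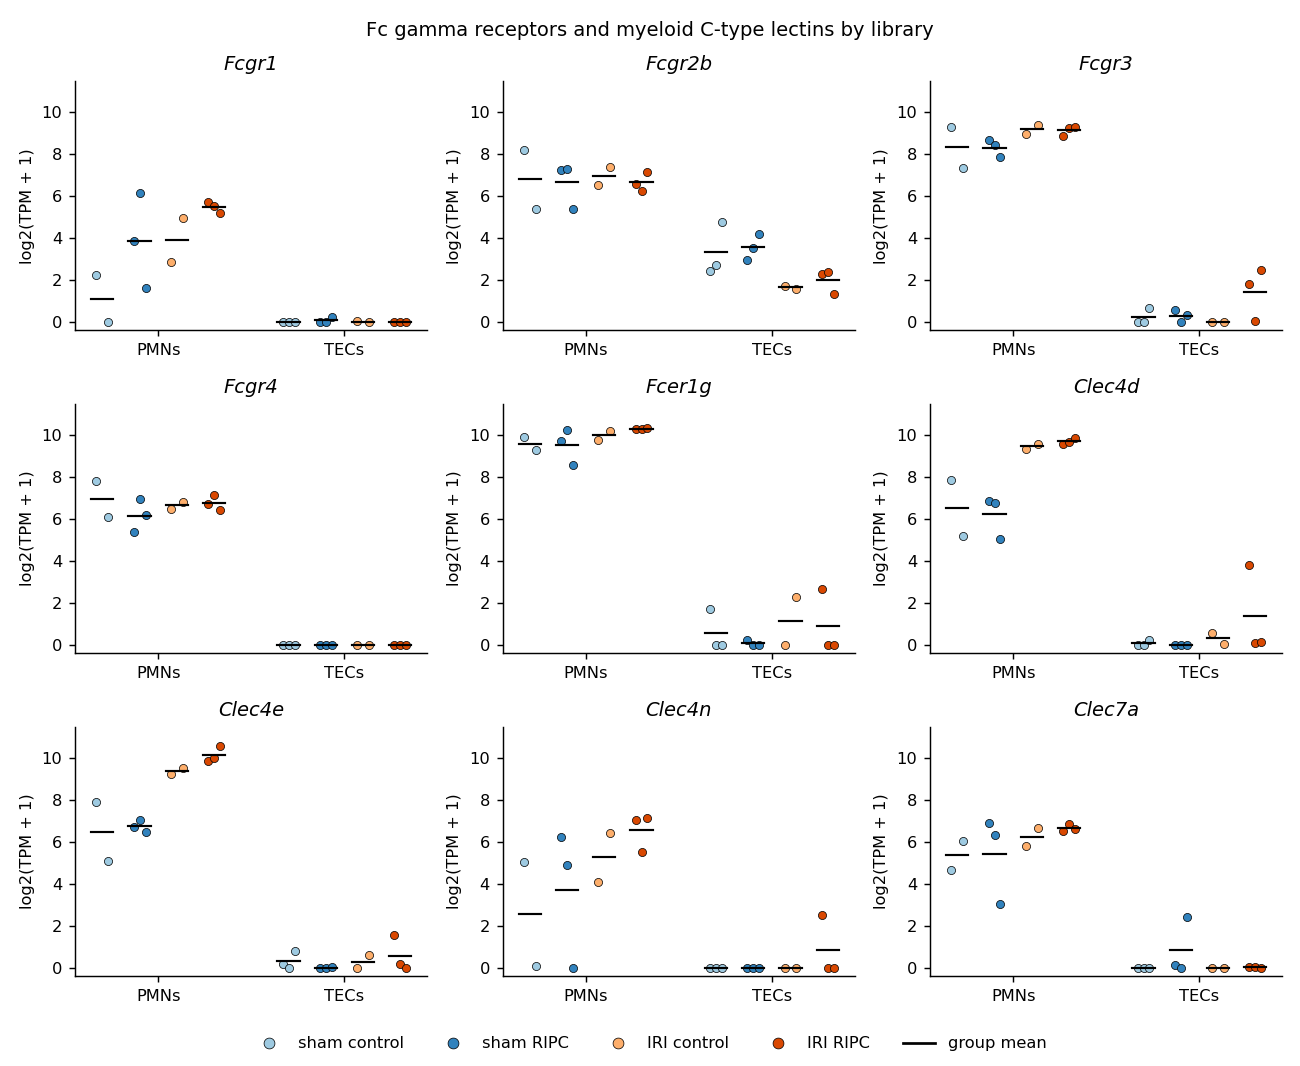
Level of each gene in each library as log2(TPM + 1), with PMNs on the left and TECs on the right of each panel, a point per library, colours for the 4 groups and a bar at the group mean. Clec4d and Clec4e of PMNs are higher in all 5 IRI libraries than in all 5 sham libraries, and of TEC levels only Fcgr2b lies above 0 in all 11 libraries.

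After IRI, the lectin Clec4e rose in PMNs by 7.89-fold, and its neighbour and partner Clec4d was 7.78-fold higher without passing the adjusted threshold. In sham PMNs Clec4e had 417 and 136 CPM in the control libraries and 272, 273 and 138 CPM in the RIPC libraries. After IRI it had 1330 and 1820 CPM in the control libraries and 2190, 2240 and 3040 CPM in the RIPC libraries. The lowest IRI library was thus more than 3 times as high as the highest sham library. The mean was 247 ± 117 CPM after sham surgery and 2120 ± 630 CPM after IRI (SD, n = 5 each), a log2 fold change of 2.98 (SE 0.37, adjusted p = 0.0195, edgeR). It was rank 26 by p-value of the 25002 genes tested in PMNs. Depth and the leukocyte marker sum were also higher in every IRI library (3330 to 4090 CPM against 1240 to 2300 CPM), and the macrophage marker sum lower (1280 to 2410 CPM against 2960 to 9500 CPM). The neutrophil marker sum was 12500 to 32800 CPM after IRI. It was 5790 to 10500 CPM in the sham libraries besides replicate 1 of the sham control group, which had 27700 CPM. The part of depth and of these sums in the result was not tested.

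Clec4d had 343 and 60.6 CPM in the sham control libraries and 206, 173 and 63.2 CPM in the sham RIPC libraries. After IRI it had 1100 and 1320 CPM in the control libraries and 1380, 1510 and 1580 CPM in the RIPC libraries. The groups did not overlap here either, and the same sham libraries were the highest and lowest for both genes. The mean was 169 ± 117 CPM after sham surgery and 1380 ± 187 CPM after IRI, with a log2 fold change of 2.96 (SE 0.52, adjusted p = 0.0563, edgeR over 25002 genes). Both genes of the pair followed each other over the 10 PMN libraries, with Pearson's r of 0.987 for log2(CPM + 1), given as a description over libraries that differ in surgery.

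The calls on both lectins depended on single libraries and on the fit. Without replicate 1, 2 or 3 of the IRI RIPC group, Clec4e had adjusted p-values of 0.0594, 0.0768 and 0.0574, and with any other library left out it had 0.00414 to 0.0388. Clec4d passed without replicate 1 of the sham control group (log2 fold change 3.84, adjusted p = 0.00568) and without replicate 2 of it (2.64, adjusted p = 0.0427), the library rich in tubule markers, without which Clec4e had a log2 fold change of 2.74 and an adjusted p of 0.0142. In the control groups alone, 2 libraries against 2, the log2 fold change was 2.51 for Clec4e (adjusted p = 0.606) and 2.58 for Clec4d (adjusted p = 0.736). In the fit to all 21 libraries Clec4e had an adjusted p of 0.377 and with the replicate block one of 0.0883. By DESeq2 both passed, with adjusted p = 0.000298 for Clec4e and 0.00297 for Clec4d.

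**Figure D2:**
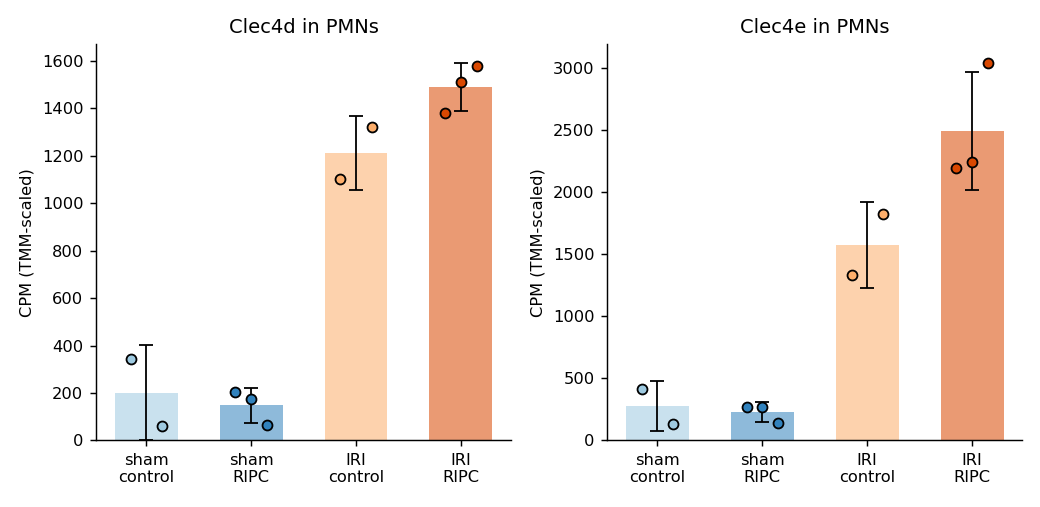
CPM of Clec4d (left) and Clec4e (right) in PMNs, with a point per library, bars from 0 to the group mean and whiskers of 1 SD (n = 2 or 3). Clec4e lies between 136 and 417 CPM in the sham libraries and between 1330 and 3040 CPM after IRI, and Clec4d between 60.6 and 343 CPM and between 1100 and 1580 CPM.

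Of the 9 genes, 1 rose and none fell between sham and IRI PMNs (edgeR, adjusted p under 0.05), where 0.416% of all genes tested were called, 91 higher and 13 lower. At an unadjusted p under 0.05, 2 of the 9 passed, as did 2958 of the 25002 genes tested. The median log2 fold change of the 9 genes was 0.92 and that of all genes tested was -0.01, and 8 of the 9 values were above 0. In Clec4d and Clec4e all IRI libraries lay above all sham libraries, a pattern seen in 3.43% of the genes tested.

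The remaining lectins overlapped between sham and IRI PMNs. Clec4n, the mannan receptor, had 25.8 and 0.186 CPM in the sham control libraries, 122, 47.6 and 0 CPM in the sham RIPC libraries, 24.6 and 133 CPM in the IRI control libraries and 195, 76.4 and 170 CPM in the IRI RIPC libraries. Its sham values ran from no read to over 100 CPM, and the log2 fold change was 1.99 (adjusted p = 0.626, edgeR). Clec7a, the beta-glucan receptor, had 67.8 and 147 CPM in the sham control libraries, 327, 240 and 34.7 CPM in the sham RIPC libraries, 192 and 313 CPM in the IRI control libraries and 269, 372 and 276 CPM in the IRI RIPC libraries. Its IRI libraries overlapped the upper part of the sham range, with a log2 fold change of 0.92 (adjusted p = 0.51, edgeR).

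Among the activating IgG receptors, Fcgr3 had the highest level. Fcgr3, the low-affinity receptor for immune complexes, had 1180 and 370 CPM in the sham control libraries, 875, 718 and 478 CPM in the sham RIPC libraries, 1010 and 1420 CPM in the IRI control libraries and 987, 1370 and 1300 CPM in the IRI RIPC libraries. Replicate 1 of the sham control group reached the IRI range, and the log2 fold change was 0.73 (adjusted p = 0.413, edgeR). Fcgr4, which binds IgG2 subclasses, had 345 and 131 CPM in the sham control libraries, 72.1, 215 and 120 CPM in the sham RIPC libraries, 145 and 200 CPM in the IRI control libraries and 188, 264 and 145 CPM in the IRI RIPC libraries. The IRI values lay inside the sham range, with a log2 fold change of 0.04 (adjusted p = 1, edgeR) that moved between -0.16 without replicate 2 of the sham control group and 0.49 without replicate 1, and that was also below 0 without replicate 2 of the IRI control group (-0.05), replicate 2 of the IRI RIPC group (-0.07) or replicate 1 of the sham RIPC group (-0.11). Fcgr1, the high-affinity receptor of monocytes and macrophages, had 12.1 and 0 CPM in the sham control libraries, 33.4, 154 and 10.6 CPM in the sham RIPC libraries, 30.3 and 85.7 CPM in the IRI control libraries and 139, 127 and 85.6 CPM in the IRI RIPC libraries. Its highest sham library was above every IRI library, and the log2 fold change of 2.04 (adjusted p = 0.521, edgeR) became 7.14 (adjusted p = 0.0507) without replicate 1 of the sham control group, which leaves that group with a library at 0 reads.

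The inhibitory receptor Fcgr2b was the only one of the 9 genes with a fold change below 0. It had 678 and 126 CPM in the sham control libraries, 373, 467 and 140 CPM in the sham RIPC libraries, 244 and 408 CPM in the IRI control libraries and 247, 223 and 319 CPM in the IRI RIPC libraries. The sham libraries enclosed the IRI libraries, and the log2 fold change was -0.31 (adjusted p = 0.874, edgeR). Its sign was turned by replicate 1 of the sham control group, without which it was 0.54, while without replicate 2 it was -0.62. With the reads of Fcgr2b and Fcgr3 added, since they share sequence, the log2 fold change was 0.46.

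Fcer1g, the common gamma chain, had 793 and 592 CPM in the sham control libraries, 798, 1090 and 377 CPM in the sham RIPC libraries, 773 and 990 CPM in the IRI control libraries and 1110, 1170 and 1110 CPM in the IRI RIPC libraries. The log2 fold change was 0.47 (adjusted p = 0.519, edgeR), and the chain had the highest TPM of the 9 genes both after sham surgery and after IRI.

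**Figure D3:**
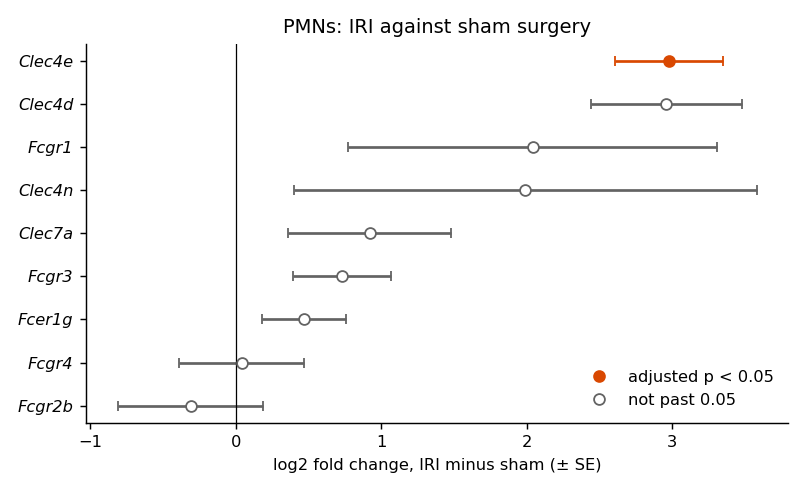
Log2 fold change of each gene between IRI and sham PMNs (points) with its SE (whiskers), filled where the adjusted p of edgeR is under 0.05. Clec4e at 2.98 is the filled point, Clec4d stands beside it at 2.96, and Fcgr2b at -0.31 is the lowest.

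The balance of activating to inhibitory IgG receptors was described by the TPM of Fcgr1, Fcgr3 and Fcgr4 over that of Fcgr2b. The ratio was 2.91 and 5.64 in the sham control libraries, 3.05, 3.37 and 7.35 in the sham RIPC libraries, 6.39 and 4.97 in the IRI control libraries and 6.55, 10.7 and 5.34 in the IRI RIPC libraries. Activating transcripts thus outnumbered inhibitory ones in every library, at 4.46 ± 1.96 after sham surgery and 6.79 ± 2.28 after IRI (SD, n = 5), and the ranges overlapped. The macrophage marker sum was 2960 to 9500 CPM in sham and 1280 to 2410 CPM in IRI PMNs, and Fcgr3 shares 9.58% of its 50-base words with Fcgr2b. The part of either in the ratio was not tested. The TPM ratio of Clec4e to Clec4d was 1.37 ± 0.788 after sham surgery and 1.19 ± 0.28 after IRI.

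The study asked what RIPC changes, and in the comparison of RIPC with control no call was made on these genes. After sham surgery, 0 of the 9 genes were called in PMNs by edgeR, 0 had an unadjusted p under 0.05 and 0 were called by DESeq2, where 0.004% of all genes tested were called by edgeR. The log2 fold changes ran from -0.81 for Fcgr4 (SE 0.6, adjusted p = 0.747) to 3.44 for Fcgr1 (SE 2.01, adjusted p = 0.705; 1.91 to 13.6 with a library left out, the highest without replicate 1 of the sham control group), with a median of -0.17 against 0 over all genes. After IRI, again 0 of the 9 genes were called by edgeR, 0 had an unadjusted p under 0.05 and 0 were called by DESeq2, and edgeR called 0% of the 25002 genes.

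The genes of the Mincle pair and the gamma chain were nonetheless higher in each IRI RIPC library than in each IRI control library, a pattern that 6.41% of the genes tested showed. Clec4e had a mean of 2490 ± 480 CPM with RIPC (n = 3) and 1570 ± 348 CPM without (n = 2), a log2 fold change of 0.66 (SE 0.49, adjusted p = 0.932, edgeR). Clec4d had 1490 ± 102 CPM with RIPC and 1210 ± 160 CPM without (0.30, SE 0.67, adjusted p = 1), and Fcer1g had 1130 ± 37.8 CPM against 881 ± 153 CPM (0.36, SE 0.41, adjusted p = 1). These differences were smaller than 2 SE, so neither a change nor its absence was shown. The effect of RIPC did not pass as different between sham and IRI PMNs for any of the 9 genes (interaction, 0 called by edgeR and by DESeq2, 0 at an unadjusted p under 0.05, and 0% of all genes called by edgeR), with 0.94 for Clec4e on the log2 scale (SE 0.68, adjusted p = 0.842).

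In TECs, Fcgr2b was the only one of these genes with more than 3 reads in every library. It had 336 to 2332 reads, which were 23.9, 25.2 and 91.2 CPM in the sham control libraries, 42.6, 54 and 71.3 CPM in the sham RIPC libraries, 17.4 and 22 CPM in the IRI control libraries and 24.6, 31.7 and 15.9 CPM in the IRI RIPC libraries. The 2 lowest sham libraries overlapped the IRI range. The mean was 51.4 ± 26.5 CPM after sham surgery (n = 6) and 22.3 ± 6.32 CPM after IRI (n = 5), a log2 fold change of -1.23 (SE 0.56, adjusted p = 0.321, edgeR), which without replicate 3 of the sham control group was -0.77. With an offset for transcript length it was -2.07 (adjusted p = 0.132).

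The other 8 genes were at or near 0 in most TEC libraries. Fcgr4 had no read in any of the 11 libraries, which allows 3 reads in each, and Clec4n had 218 reads in replicate 1 of the IRI RIPC group and none elsewhere. The same library held the most Clec4d (643 reads, 25.1 CPM, against at most 20 reads elsewhere) and the most Clec4e (230 reads, against at most 85 elsewhere), with 150 reads of Fcgr3 and 121 of Fcer1g. It also held the most leukocyte markers, summing to 112 CPM where the other TEC libraries had 0.878 to 43.5 CPM, and the most neutrophil markers (110 CPM against 1.91 to 88.4 CPM), whose part in these reads was not tested. Fcgr3 had 335 reads in replicate 3 of the IRI RIPC group and at most 36 in the 9 libraries besides these, Fcer1g had 71 and 123 reads in 1 further library of the sham control and IRI control groups each, Clec7a had 145 reads in 1 sham RIPC library, and Fcgr1 had at most 22.

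Of the 9 genes, 5 passed the filter on low counts in TECs (Fcgr2b, Fcgr3, Fcer1g, Clec4d and Clec4e), and all of these but Fcgr2b had libraries without a read. Between IRI and sham TECs 0 of these 5 were called by edgeR, where 1.4% of all genes tested were called, and 0 by DESeq2 among the 3 it tested. At an unadjusted p under 0.05 (edgeR), 2 passed, as did 3893 of the 25917 genes tested. These 2 were Fcgr2b and Clec4d, with an adjusted p = 0.247 for the latter. RIPC against control gave 0 called genes of the 5 after sham surgery and after IRI (0% and 0.00386% of all genes). The interaction gave 0 as well (0% of all genes), and DESeq2 called 0 in each. Unadjusted, 0, 1 and 1 of the 5 passed in the same order, against 1175, 1128 and 1869 of all genes tested.

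Compared between the cell types, all 9 genes were higher in PMNs than in TECs after sham surgery (edgeR, adjusted p under 0.05), and 8 of 9 after IRI, where 2.62% and 2.67% of all genes were called. Fcgr1, Fcgr4, Clec4n and Clec7a did not pass the filter in TECs and entered this joint fit through their PMN reads. For them this direction was thus fixed beforehand, and all 9 genes were chosen as receptor genes of myeloid cells. DESeq2 called 8 of the 8 members it tested in each comparison. Fcgr2b showed the smallest difference, 7.73-fold after sham surgery (log2 fold change 2.95, SE 0.54, adjusted p = 0.00335) and 14.7-fold after IRI (3.87, SE 0.63, adjusted p = 0.00134). The former was not called without replicate 1 of the PMN sham control group (adjusted p = 0.0633). For genes at 0 in TECs only a lower bound can be given, by which Fcgr4 was at least 1640-fold higher in PMNs after sham surgery and at least 1560-fold after IRI, and Clec4n at least 365-fold after sham surgery, against a floor of 3 reads per TEC library. Fcgr1 and Clec7a had 5 reads each in all IRI TECs together and were 2340-fold (1000 to 7200) and 7090-fold (3040 to 21800) higher in IRI PMNs, with exact 95% intervals that cover counting error only.

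Clec4n was the gene not called after IRI (adjusted p = 0.0728, edgeR). It was called with the TEC library holding its 218 reads left out (adjusted p = 0.0116). It was also called without replicate 3 of the PMN sham RIPC group (adjusted p = 0.0331), which is not part of this comparison. The call thus did not depend on that TEC library alone, and the log2 fold change ran from 9.03 to 14.39 over the libraries left out. After sham surgery, Clec4n was not called without replicate 2 of the TEC sham control group (adjusted p = 0.0826), and neither was Fcgr1 without that library (adjusted p = 0.052) or without replicate 1 of the PMN sham control group (log2 fold change 3.83, adjusted p = 1). All PMN libraries lay above all TEC libraries in 7 of the 9 genes after sham surgery, the exceptions being Fcgr1 and Clec4n, and in all 9 after IRI, where 3.76% and 3.94% of all genes did so. The IRI effect itself did not pass as different between PMNs and TECs for any of the 9 genes (0 called by edgeR and by DESeq2, 0 at an unadjusted p under 0.05, and 0% of all genes called by edgeR), with 0.92 for Fcgr2b on the log2 scale (SE 0.76, adjusted p = 0.892). For Fcgr1, Fcgr4, Clec4n and Clec7a, at or near 0 in most TEC libraries, this test could not decide, with SEs of 5003, 65.1, 8853 and 13.1.

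The Fcgr2b reads of PMNs and TECs were mostly assigned to different transcripts. In PMNs, Fcgr2b-202 took 48.1% to 80.1% of the gene's reads (median 72.6%) and Fcgr2b-201 took 7.61% to 38.8% (median 17.5%). In TECs, Fcgr2b-201 took 29.7% to 100% (median 80%) and Fcgr2b-202 took 0% to 55.2% (median 19.5%). The share of Fcgr2b-201 was higher in 10 of the 11 TEC libraries than in every PMN library. Among TECs it was 61.8%, 48.5% and 29.7% in the sham control libraries, 80%, 65.7% and 68.2% in the sham RIPC libraries, 89.7% and 100% in the IRI control libraries and 89.6%, 100% and 100% in the IRI RIPC libraries, so that every IRI library lay above every sham library. These shares are estimates by Salmon and were not tested. Fcgr2b-201 holds an additional exon of 141 bases (exon 6, chr1:170963325-170963465) and a last exon of 2484 bases, against 543 bases in Fcgr2b-202. The additional exon lengthens the cytoplasmic part of the receptor and marks the form known from B cells, while the form without it is that of myeloid cells. Fcgr2b-204 holds this exon too, with 0.544% to 15.2% of the reads in PMNs and at most 4.69% in TECs. Reads on the exon itself were not counted, so the shares do not show which form was present. The 5 B cell markers summed to 0.0553 to 42.6 CPM in TECs and 4.62 to 56.4 CPM in PMNs. The 12 monocyte and macrophage markers summed to 3.63 to 51.8 CPM in sham TECs and 30.7 to 65.3 CPM in IRI TECs. In PMNs they summed to 2960 to 9500 CPM after sham surgery and 1280 to 2410 CPM after IRI. The part of both kinds of cell in the shares was not tested.

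**Figure D4:**
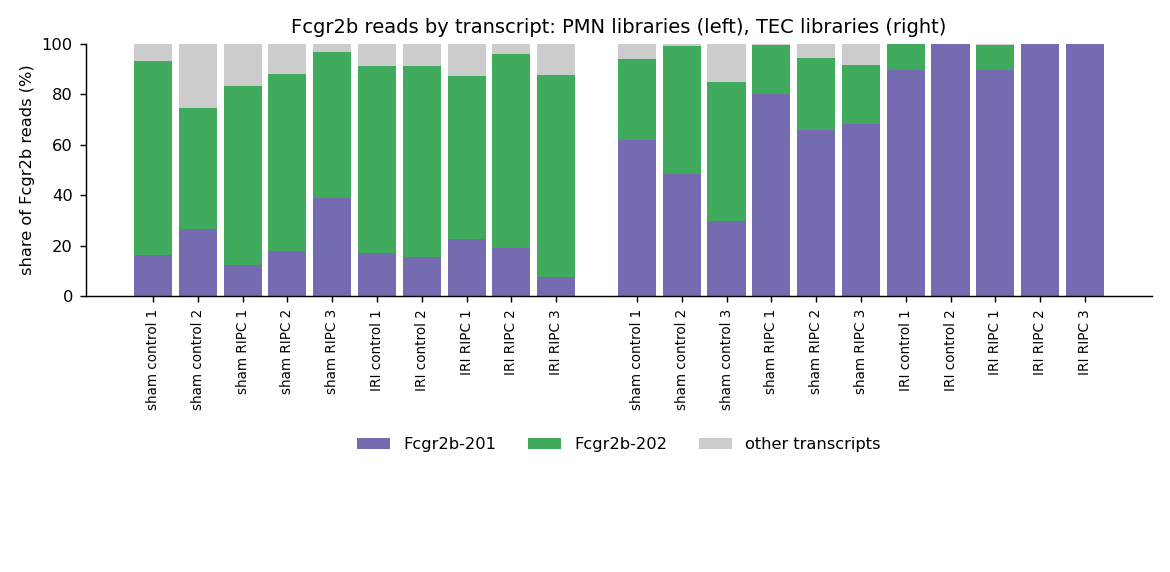
Share of the Fcgr2b reads assigned to Fcgr2b-201 (with the additional exon), Fcgr2b-202 and all other transcripts in each PMN library (left) and TEC library (right), in percent. The other transcripts include Fcgr2b-204, which also holds the additional exon. Fcgr2b-202 takes 48.1% to 80.1% in PMNs, and Fcgr2b-201 takes 29.7% to 100% in TECs.

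Of the Clec4e reads in PMNs, 26.7% to 70.7% were assigned to transcripts annotated as a retained intron, for nonsense-mediated decay or as processed, above all Clec4e-203, annotated as a retained intron, with 44.3% of all reads against 29.5% for the coding Clec4e-201. For Clec4d this share was 26.6% to 48.3%, and for Fcgr3, Fcer1g and Clec7a at most 4.74%, 1.33% and 0.995%. It reached up to 34.7% for Clec4n, 21% for Fcgr1 and 11.7% for Fcgr2b in single libraries, and the only transcript of Fcgr4 is coding. Most Clec7a reads (84.6%) went to Clec7a-204, which the annotation calls a polymorphic pseudogene.

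The genes whose level followed 6 of the 9 genes most closely over the 10 PMN libraries are given as a description, by Pearson's r of log2(CPM + 1). These libraries differ in surgery, and the IRI libraries are all deeper than the sham libraries, which r does not take into account. For Clec4e they were Slfn2 (0.994), Nfkbia (0.993) and Lmnb1 (0.989), and for Clec4d Slfn2 (0.994), Fpr1 (0.993) and Nfkbia (0.99). Nfkbia encodes the inhibitor of NF-kB, and Fpr1 the receptor for formylated bacterial peptides. For Fcgr3 they were Flot2 (0.983), Atf1 (0.976) and Il17ra (0.966), and for Clec7a Jak3 (0.948), Iws1 (0.947) and Traf1 (0.938). For Fcgr2b they were Aldh16a1 (0.877), Wdsub1 (0.872) and Commd8 (0.871), and for Fcgr4 Tnik (0.901), Tfdp2 (0.893) and Gm16026 (0.893). Fcgr1 and Clec4n did not exceed 3 reads in all PMN libraries and were left out. Those of Fcer1g are not reported here.

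The lists of signalling genes and partners of these receptors held 1 gene each that rose in IRI PMNs, the kinase Lyn, the inhibitory receptor Lilrb4a and the amplifier Trem1, where 0.416% of all genes tested were called and their median log2 fold change was -0.01. In the same libraries the leukocyte marker sum was higher after IRI (3330 to 4090 CPM against 1240 to 2300 CPM) and the proximal tubule sum lower (493 to 845 CPM against 1200 to 10600 CPM), and their part in the counts and medians of these lists was not tested. The neutrophil sum was 12500 to 32800 CPM after IRI and 5790 to 27700 CPM after sham surgery, and its part was not tested either. Of the 14 ITAM signalling genes tested, 1 rose and none fell, with a median log2 fold change of 1.25 and all 14 above 0. Lyn, the Src-family kinase that serves activating and inhibitory receptors, had 140 and 68.4 CPM in the sham control libraries, 121, 188 and 91.5 CPM in the sham RIPC libraries, 502 and 684 CPM in the IRI control libraries and 514, 598 and 561 CPM in the IRI RIPC libraries. The groups were widely apart, and Lyn rose 4.87-fold (log2 fold change 2.28, SE 0.33, adjusted p = 0.0294, edgeR). Syk, the kinase that docks to phosphorylated ITAMs, had a similar log2 fold change of 2.42 but a larger SE of 1.24 (adjusted p = 0.429).

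Of the 9 inhibitory signalling genes, 1 rose and none fell (median 1.25, all 9 above 0). Lilrb4a, an inhibitory receptor of myeloid cells, rose 6.67-fold from 379 ± 188 to 2550 ± 390 CPM (SD, n = 5, adjusted p = 0.0294, edgeR). The phosphatase gene Ptpn6 was at 209 ± 103 and 515 ± 111 CPM (adjusted p = 0.356) and the phosphatase gene Inpp5d, which Fcgr2b recruits, at 59 ± 56.2 and 246 ± 67.9 CPM (adjusted p = 0.546). Of the 9 tested adaptors and partners, 1 rose and none fell (median 1.65, all 9 above 0). Trem1, an amplifier of neutrophil responses that signals through Tyrobp, rose 5.85-fold from 265 ± 207 to 1470 ± 182 CPM (adjusted p = 0.018, edgeR), while Tyrobp, the ITAM adaptor that resembles the gamma chain, was at 943 ± 202 and 1240 ± 241 CPM (log2 fold change 0.38, adjusted p = 0.516).

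Of the 13 inflammatory genes known to be induced through these receptors, 2 rose and none fell, with a median of 2.34 and 12 above 0. The chemokine Cxcl2 had 706, 518, 651, 472 and 310 CPM in the 5 sham libraries and 3170, 4490, 3680, 5810 and 5000 CPM in the 5 IRI libraries, a 7.96-fold rise (log2 fold change 2.99, SE 0.26, adjusted p = 0.00672, edgeR). The cytokine Il1b rose 3.91-fold, from 1520 ± 307 to 6480 ± 2750 CPM (adjusted p = 0.0262, edgeR). These genes are also induced through other receptors.

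Of these calls, that of Cxcl2 was kept with each library left out in turn (adjusted p of 0.00407 to 0.0392), and the others were lost with some of them. Lyn, Lilrb4a and Trem1 were each lost without replicate 1, 2 or 3 of the IRI RIPC group, with adjusted p-values of up to 0.116, 0.0891 and 0.079 over the libraries left out. Lyn and Lilrb4a were also lost without replicate 2 of the IRI control group, replicate 2 of the sham control group or replicate 1 of the sham RIPC group, and Lyn without replicate 1 of the IRI control group. Il1b was lost without replicate 2 or 3 of the IRI RIPC group (up to 0.0891). In the fit to all 21 libraries Lyn (adjusted p = 0.381), Lilrb4a (0.297), Il1b (0.448) and Trem1 (0.0618) were lost, and with the replicate block Lyn (0.119), Lilrb4a (0.0623) and Il1b (0.117). In the control groups alone none of the 5 was called.

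Among the relatives of the 9 genes in PMNs, a single call was made. Of the 13 other C-type lectins tested in PMNs, 1 fell and none rose, with a median log2 fold change of -0.38 and 4 above 0. Clec4b1, a lectin of dendritic cells in the same gene family as Clec4d, had 7.26 and 59.9 CPM in the sham control libraries and 24.9, 32.3 and 16.1 CPM in the sham RIPC libraries, but 1 read in all 5 IRI libraries together (adjusted p = 0.0374, edgeR). It passed the filter on low counts through its sham reads alone, so that only a fall could be called. The call was kept only without replicate 1 of the sham control group, and with any other library left out the adjusted p reached up to 0.192. The ratio of sham to IRI was 3480 (625 to 138000, exact 95% interval of counting error), and dendritic cell markers summed to 45.8 to 199 CPM in sham and 22.6 to 72.2 CPM in IRI PMNs, whose part in this was not tested. Of the 8 other Fc receptors tested, none was called by edgeR. As in 2958 of the 25002 genes tested, an unadjusted p under 0.05 was found in 1 of them. This was Fcgrt, the neonatal Fc receptor that protects IgG from breakdown and is also expressed in kidney and macrophages. It was at 188 ± 73.6 CPM after sham surgery and 47.1 ± 16.5 CPM after IRI (log2 fold change -1.85, SE 0.37, adjusted p = 0.106, edgeR). All its IRI libraries lay below all sham libraries, as in 2.08% of the genes tested. Macrophage and proximal tubule markers were lower in the same libraries, as given above, and their part in this was not tested.

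**Figure D5:**
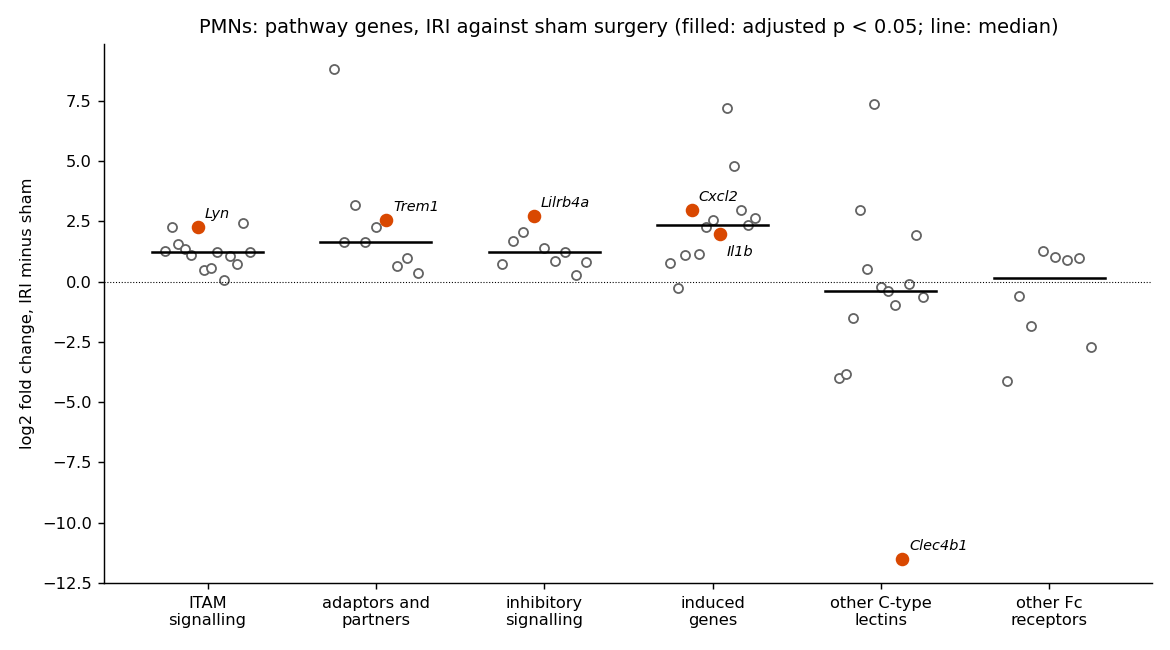
Log2 fold change between IRI and sham PMNs of each tested gene of 6 lists (points), with the list's median as a line and filled, named points where the adjusted p of edgeR is under 0.05. Medians run from 2.34 in the induced genes to -0.38 in the other C-type lectins, and the plotted value of Clec4b1 rests on 1 read in the IRI libraries, so that its size is not exact.

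RIPC against control gave 0 called genes by edgeR in each of the 6 lists, in PMNs and in TECs and after either surgery, with 0 to 3 genes of a list at an unadjusted p under 0.05. Over all genes tested, 1150 after sham surgery and 680 after IRI were under it in PMNs (of 25002), and 1175 and 1128 in TECs (of 25917). In TECs, Cxcl2 had at most 3 reads in each sham library and 84 to 927 reads in each IRI library (adjusted p = 0.0182, edgeR). It passed the filter on low counts through its IRI reads, so that only a rise could be called. Neutrophil markers summed to 1.91 to 34 CPM in sham and 35.4 to 110 CPM in IRI TECs, and their part in the Cxcl2 reads was not tested. Sirpa, the inhibitory receptor for Cd47, fell from 44.1 ± 15 to 8.74 ± 15.1 CPM in TECs (log2 fold change -4.27, adjusted p = 0.0198, edgeR), with overlapping groups. After IRI it was at 21.5 ± 19.3 CPM in the control group (SD, n = 2) and 0.231 ± 0.239 CPM in the RIPC group (SD, n = 3; adjusted p = 0.182 between them, edgeR). In the control groups alone the log2 fold change between IRI and sham was -1.19 (adjusted p = 0.715, edgeR). The call on Cxcl2 was lost without replicate 1 of the IRI RIPC group, replicate 2 or 3 of the sham control group or any sham RIPC library (adjusted p of up to 0.0767), and that on Sirpa without replicate 2 of the IRI control, sham control or sham RIPC group or replicate 3 of the sham control group (up to 0.0758). No other gene of the 6 lists was called between IRI and sham TECs. Against TECs, sham PMNs were higher in 9 of 14 ITAM signalling genes, 6 of 9 inhibitory genes, 5 of 9 adaptors and partners, 6 of 13 induced genes, 6 of 16 other lectins and none of the 10 other Fc receptors (at an unadjusted p under 0.05, 3 were higher and 2, Pigr and Fcamr, lower, edgeR), where 2.62% of all genes tested were called, 472 higher and 360 lower. In this joint fit of both cell types, Rac2, the GTPase of the neutrophil oxidase, had 325 ± 101 CPM in PMNs (n = 5) and 1.53 ± 1.19 CPM in TECs (n = 6), Lilrb4a had 394 ± 192 and 4.13 ± 6.54 CPM, and Clec4a3, one of the other lectins, had 113 ± 92.9 and 0.0253 ± 0.062 CPM. Trem1 had 275 ± 212 CPM in PMNs and no read in sham TECs. After IRI the counts were 8 of 14 ITAM signalling genes, 7 of 9 inhibitory genes, 6 of 9 adaptors and partners, 7 of 13 induced genes, 2 of 16 other lectins and none of the 10 other Fc receptors (at an unadjusted p under 0.05, 2 were higher and 1, Fcgrt, lower), where 2.67% of all genes tested were called, 474 higher and 373 lower. Trem1, Trem3 and Siglece are among these counts but did not pass the filter in TECs and entered the joint fit through their PMN reads. For them the direction was thus fixed beforehand, and how many other counted genes this holds for was not examined. Over all 31769 genes tested, 5572 after sham surgery and 4590 after IRI had an unadjusted p under 0.05 (edgeR).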

How the data were processed

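Neutrophils of the blood and tubular epithelial cells, the latter enriched with beads against prominin-1 in the study's protocol for primary cells, were sequenced as 50-base single-end reads of full-length cDNA primed on poly(A). The authors trimmed reads with Trim Galore 0.6.4 and quantified them against Gencode vM23 (mm10) with Salmon 1.0.0, per the labels and the methods. The deposited files hold estimated counts per transcript, TPM and the effective length, in 2 files per library whose meaning is not stated. Gene-level values of both files correlated at 0.9926 to 0.99642.

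Here the estimated counts were added over a gene's transcripts and both files of a library and rounded to whole numbers. TPM were added over transcripts and averaged over both files. Transcripts were matched to genes of Gencode M21 on GRCm38, leaving out 884 of 140748 transcripts with 0.139% to 0.255% of the reads, and genes of the sex chromosomes and mitochondria were not tested. Libraries held 20881334 to 51624602 reads. Genes were filtered with filterByExpr, scaled by TMM and tested with edgeR 4.0.16 (in R 4.3.3, with limma 3.58.1) by its quasi-likelihood method with a mean for each group, separately in PMNs and TECs and jointly for cell types, and called at a Benjamini-Hochberg adjusted p under 0.05. The SE of a log2 fold change was its size over the root of F. Alternatives were DESeq2 1.42.0, other scaling, filters, either file alone, a length offset, robust dispersions, a fit to all libraries, control groups alone, a replicate block and leaving out each library. Statistics were tested on simulated data, where the calls between IRI and sham TECs held more unchanged genes than the adjusted p allows.

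The 9 genes, the gene lists and the tests were chosen with earlier results of these data known. Of each list up to 4 called genes per comparison and direction were named by adjusted p, or, with none called, up to 2 of the highest mean level; Syk, Ptpn6, Inpp5d and Tyrobp were added for their roles after their values were seen. Within a cell type, no pairing of libraries by replicate number was seen. Deviations of same-numbered libraries of different groups correlated at -0.023 to 0.03 in PMNs and -0.106 to 0.139 in TECs. Differently numbered ones correlated at -0.03 to 0.03 and -0.121 to 0.076. In groups of 2 libraries the deviations mirror each other, which limits this check. Whether PMNs and TECs of the same number came from the same mouse was not examined.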

Additional observations from a re-analysis of the deposited data

How the results depend on the processing

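The call on Clec4e was lost in the fit to all 21 libraries (adjusted p = 0.377), with the replicate block (0.0883) and in the control groups alone (0.606), while its log2 fold change stayed between 2.51 and 3.51 over all alternatives. The number of the 9 genes called between IRI and sham PMNs was 2 with DESeq2, DESeq2 size factors, at least 10 counts in every library, either file alone or no filter, 0 with the fit to all libraries, the replicate block or the control groups alone, and 0 to 2 with a library left out. The log2 fold change of Fcgr2b there turned to 0.46 with Fcgr3 added, and that of Fcgr4 to -0.46 in the control groups alone. With a library left out they ran from -0.62 to 0.54 and from -0.16 to 0.49, and for RIPC from -0.63 to 0.14 (Fcgr2b after IRI) and from -1.32 to 0.03 (Fcgr4 after sham surgery). The number called between PMNs and TECs was 1 after sham surgery and 1 after IRI with at least 10 counts in every library, where Fcgr2b alone could be tested, 4 and 2 in the control groups alone, and 7 to 9 and 8 to 9 with a library left out. Without a filter 1 of the 9 genes was called for the difference of the IRI effect between cell types.

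Counts over all genes depended strongly on the tool and filter. DESeq2 called 1413 genes between IRI and sham PMNs, 703 and 374 for RIPC after sham surgery and after IRI and 602 for their interaction. In TECs it called 2077, 441, 664 and 587 genes in the same order, between cell types 4766 after sham surgery and 3701 after IRI, and 2347 for the difference of the IRI effect. Without a filter edgeR called 971, 139, 18 and 101 genes in PMNs, 1289, 54, 71 and 84 in TECs, 2222 and 1763 between cell types and 722 for the difference. With at least 10 counts in every library it called 444 genes between IRI and sham PMNs, 683 in TECs and 123 for the difference, and 0 for RIPC in sham PMNs and in IRI TECs. In the control groups alone it called 0 genes between IRI and sham PMNs, 1 in TECs, and 180 and 71 between cell types. The fit to all libraries called 37 genes between IRI and sham TECs. The first file alone gave 2 genes for RIPC in IRI TECs and 1 for the difference, the second file alone 1 for the difference and 0 for RIPC in sham PMNs, and robust dispersions 4 for RIPC in IRI TECs and 5 for the difference. The replicate block, although no pairing by number was seen within a cell type, gave 23 genes between IRI and sham PMNs, 0 for RIPC in sham PMNs and 3 for RIPC in IRI TECs.

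With a library left out, the counts ran from 13 (without replicate 2 of the PMN IRI RIPC group) to 393 (without replicate 1 of the PMN sham control group) between IRI and sham PMNs, from 92 to 714 in TECs, from 549 to 1276 and from 560 to 1202 between cell types after sham surgery and IRI, from 0 to 124 for the difference, from 0 to 11 for RIPC in sham PMNs, from 0 to 6 and from 0 to 22 for RIPC in sham and IRI TECs and from 0 to 15 for the TEC interaction. The causes were not tested.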
